A study of Mus musculus with 6 samples.

Results

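The genes of the chemokine ligands and receptors were followed in differentiating against undifferentiated mouse embryonic stem (ES) cells. A gene was included when the single symbol of a probe set in the platform annotation had the form of a Ccl, Cxcl, Cx3cl or Xcl ligand name, or of a Ccr, Cxcr, Cx3cr, Xcr or Ackr receptor name. This gave 53 genes, 33 ligands and 20 receptors, of 18193 genes with such a probe set. They were measured by 85 probe sets, 20 of the genes by more than 1, and the probe set of highest mean over the 6 arrays gave a gene's value. RNA came from 6 samples of E14TG2a, which is a single ES cell line. The 3 undifferentiated samples were grown with leukaemia inhibitory factor (LIF, 1000 units/ml), which holds ES cells undifferentiated, and were sorted by FACS as negative for 5T4, an oncofetal glycoprotein at the cell surface. The 3 differentiating samples had been without LIF for 3 days and were sorted for cells positive for 5T4. LIF withdrawal and the 5T4 sort therefore cannot be told apart. The sources used here number the replicates but do not say that they were separate cultures, so the p-values measure the spread between these samples, which may be technical.

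Chemokines are small secreted proteins that direct cell movement through G protein-coupled receptors. Inflammatory chemokines are induced by cytokines such as the interferons and mainly attract leukocytes, whereas homeostatic chemokines such as CXCL12 are made without inflammation and guide stem and progenitor cells in the embryo and bone marrow. Atypical receptors bind chemokines without G protein signalling and act largely as scavengers.

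Values are RMA values, which are on a log2 scale after background correction and normalization between arrays. A difference of 1 is therefore a doubling, and a fold change is given as a log2 difference, differentiating minus undifferentiated, with its standard error (SE). A gene was called at an adjusted p under 0.1 from limma, adjusted over all 45037 probe sets. The table holds no detection calls, and probe sets differ in how brightly they bind, so levels were not compared between genes. As a rough guide to low signal, 43 probe sets of olfactory receptor genes had mean values of 2.92 to 5.73, and 10 ligands and 2 receptors had means above the highest of these. The other 23 ligands and 18 receptors lay at or below it, where a fold change can be understated. That highest value falls between Ccl27a and Cxcl13, at percentiles 51.8 and 52.4 of all probe sets. The range therefore also holds about 52% of all probe sets, and a mean within it does not show that a gene is silent. In RNA from a whole sorted population, fewer cells of a type and less RNA per cell cannot be told apart.

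Array medians lay between 5.54 and 5.65, but differentiating replicate 1 stood apart in its lower quartile, 4.26 against 4.07 to 4.10 on the other arrays. It gave the highest value of the 6 arrays for 34 of the 53 chemokine genes (64.2%), compared with 27.9% of all genes. Of the 8 ES cell markers, Klf4, Sox2 and Pou5f1 fell by 4.20, 0.96 and 0.68 on the log2 scale and the other 5 did not pass. Among these 5, Esrrb (-3.55, adjusted p = 0.123 from limma) and Zfp42 (-2.64, adjusted p = 0.106) had larger estimates than Sox2 and Pou5f1, and Fut4 (0.20) was above 0. All differentiating arrays lay below all undifferentiated ones for 6 of the 8, where 12.8% of all genes were separated downward. Pou5f1 stayed at 11.39 or above on every array. The gene of 5T4 itself, Tpbg, was at 5.94, 6.76 and 5.68 in undifferentiated replicates 1 to 3 and at 6.71, 7.52 and 7.97 in the differentiating ones, so undifferentiated replicate 2 lay just above differentiating replicate 1 at this probe set. The log2 fold change there was 1.27 and did not pass (adjusted p = 0.22 from limma). The other Tpbg probe sets separated the groups but did not pass either. The second had 5.60, 6.54 and 5.50 against 6.94, 7.32 and 7.52 (log2 fold change 1.39, adjusted p = 0.118 from limma). The third had values of 3.53 to 3.58 against 3.80 to 4.11 (0.38, adjusted p = 0.237).

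The sequences just before the transcription start of 3 ligand genes are shown because they compare the ligand with the largest increase, Cxcl10, with its neighbour in the genome and in function, Cxcl9, and with Cxcl12. Each is the 250 bases before the start in RefSeq (build GRCm38.p6), read along the gene's own strand. They are chr5:92348890-92349139 on the minus strand for Cxcl10, chr5:92328080-92328329 on the minus strand for Cxcl9 and chr6:117168285-117168534 on the plus strand for Cxcl12. Capitals mark matches, on either strand, to 3 motifs: the interferon response element (GAAA, any 2 bases, GAAA), the NF-kB motif (GGG, any 5 bases, CC) and the interferon gamma activated site (TTC, any 3 bases, GAA).
Cxcl10: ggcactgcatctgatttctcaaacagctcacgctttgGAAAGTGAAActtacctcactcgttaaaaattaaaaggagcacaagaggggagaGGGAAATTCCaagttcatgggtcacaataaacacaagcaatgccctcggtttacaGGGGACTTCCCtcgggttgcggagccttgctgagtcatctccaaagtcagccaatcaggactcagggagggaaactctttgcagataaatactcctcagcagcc
Cxcl9: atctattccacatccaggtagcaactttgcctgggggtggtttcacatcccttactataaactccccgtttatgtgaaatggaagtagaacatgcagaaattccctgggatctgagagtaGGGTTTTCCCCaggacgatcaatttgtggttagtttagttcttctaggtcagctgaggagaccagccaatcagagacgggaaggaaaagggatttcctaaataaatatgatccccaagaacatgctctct
Cxcl12: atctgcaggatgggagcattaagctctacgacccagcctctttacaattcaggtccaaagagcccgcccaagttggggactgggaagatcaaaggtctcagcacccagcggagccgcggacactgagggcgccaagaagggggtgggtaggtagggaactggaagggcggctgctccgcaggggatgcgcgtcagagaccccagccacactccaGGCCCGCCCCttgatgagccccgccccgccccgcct

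Only the Cxcl10 window of these held an interferon response element, GAAAGTGAAA at 213 to 204 bases before the start. It also held the NF-kB matches GGGAAATTCC at 159 to 150 bases and, overlapping each other, GGGGACTTCC and GGGACTTCCC at 104 to 94 bases before the start. The capitals in Cxcl9 are an overlapping pair of NF-kB matches, 1 on each strand, at 130 to 120 bases, and those in Cxcl12 are 1 NF-kB match on the minus strand at 36 to 27 bases. None of these windows held a match to the pattern used for the interferon gamma activated site, and the window of Ackr3 matched none of the motifs. Sites that depart from these 3 patterns were not searched for, so a window without a match can still hold one. Of all 32851 promoter windows of this length, 2.98% held the interferon response element, 45.8% the NF-kB motif and 7.02% the interferon gamma activated site. Among the 40 chemokine genes with an entry, the interferon response element was found in 2 (Cxcl10 and Cxcl14), the NF-kB motif in 23 and the interferon gamma activated site in 3. A match describes the letters of the window and is not evidence that a factor binds there.

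Of the 33 ligands, 2 rose (Cxcl10 and Cxcl12), none fell and 31 did not pass, where 0.797% of all genes were called higher and 1.45% lower. Both also met a log2 fold change of at least 1, which 0.329% of all probe sets did among those called higher and 0.613% among those called lower. None of the 20 receptors passed in either direction in limma, and 3 of them (15%) had an unadjusted p under 0.05, compared with 17.2% of all genes. Over the 53 genes the median log2 fold change was 0.11, compared with 0.02 over all genes, and 47 lay within 0.5 of 0. All 3 differentiating arrays lay above all 3 undifferentiated arrays for 10 of the 53 genes and below them for 2, where 10.7% of all genes were separated upward and 12.8% downward. The log2 fold change was above 0 for 45 genes, but for 27 when differentiating replicate 1 was left out, and the median was then 0.01 (-0.01 over all genes). The part of that array's raised lower quartile in the small positive values was not tested.

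**Figure D1:**
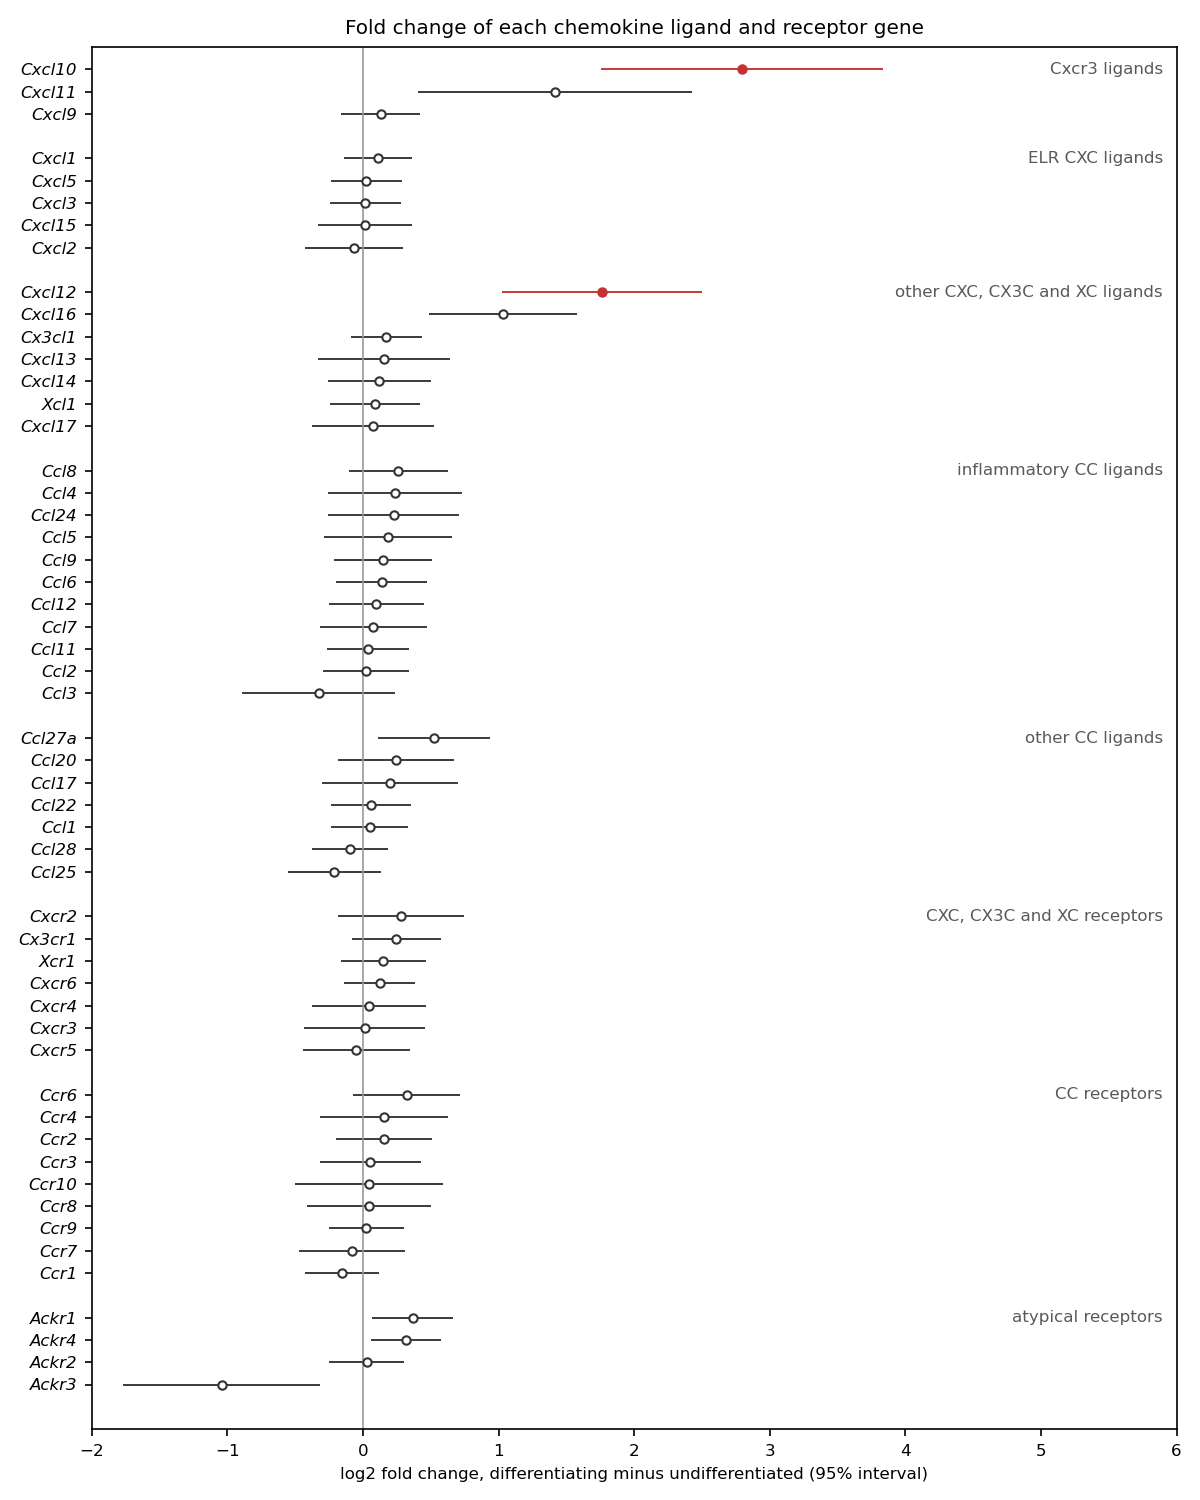
Log2 fold change (horizontal axis, differentiating minus undifferentiated) of each of the 53 chemokine genes, grouped by role, as the limma estimate with its 95% interval. Filled red points passed at an adjusted p under 0.1 (Cxcl10, 2.80, and Cxcl12, 1.76) and open points did not, and 47 of the points lie within 0.5 of 0.

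CXCR3 ligands are the interferon-induced chemokines that attract activated T cells. Cxcl10 had RMA values of 5.64, 7.27 and 5.55 in undifferentiated replicates 1 to 3 and of 8.83, 9.02 and 9.00 in the differentiating replicates. The differentiating arrays lay close together and above every undifferentiated array, among which replicate 2 was highest. Undifferentiated replicates 1 and 3 lie within the range of the olfactory receptor probe sets, so the fold can be understated. The log2 fold change of Cxcl10 was 2.80 (SE 0.44, 95% interval 1.76 to 3.84, adjusted p = 0.0682 from limma), and it was 3.36 without undifferentiated replicate 2 (adjusted p = 0.00571). Its call was lost without differentiating replicate 1, 2 or 3 (adjusted p = 0.108, 0.314 and 0.267 from limma) or undifferentiated replicate 3 (0.258), while the log2 fold change stayed at 2.49 or above in all of these.

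Cxcl11, the second CXCR3 ligand, had values of 6.18, 6.76 and 5.58 in undifferentiated and 8.20, 6.77 and 7.79 in differentiating replicates. Undifferentiated replicate 2 and differentiating replicate 2 were almost level, so the groups were separated by 0.0085 only. The log2 fold change was 1.41 (SE 0.43, 95% interval 0.41 to 2.42), short of the threshold (adjusted p = 0.218 from limma), and a dimmer second probe set gave 0.14 (adjusted p = 0.739). Cxcl9, the third, had values of 4.65, 4.53 and 4.55 in undifferentiated and 4.77, 4.82 and 4.54 in differentiating replicates. The groups overlapped and all 6 values lay within the range of the olfactory receptor probe sets (log2 fold change 0.13, adjusted p = 0.703 from limma). Cxcl9 and Cxcl10 are neighbours on the chromosome, and the difference between their fold changes was not tested.

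CXCR3, the receptor that these ligands share, had Cxcr3 values of 5.54, 5.16 and 5.32 in undifferentiated and 5.71, 5.24 and 5.12 in differentiating replicates. The groups overlapped, and the estimate turned from 0.01 to -0.16 when differentiating replicate 1 was left out. ACKR3 (CXCR7), an atypical receptor that takes up both CXCL11 and CXCL12, had Ackr3 values of 5.95, 5.32 and 4.99 in undifferentiated and 4.77, 4.48 and 3.89 in differentiating replicates. Each differentiating array was below each undifferentiated array. The log2 fold change was -1.04 (SE 0.31) and did not pass (adjusted p = 0.207 from limma). All values but that of undifferentiated replicate 1 lay within the range of the olfactory receptor probe sets. With array weights Ackr3 passed (-0.83, adjusted p = 0.0529), as it did with a replicate block (adjusted p = 0.0712), which takes same-numbered samples as paired. It did not pass in 6 other alternatives, nor with any 1 array left out (adjusted p = 0.19 to 0.491 from limma).

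**Figure D2:**
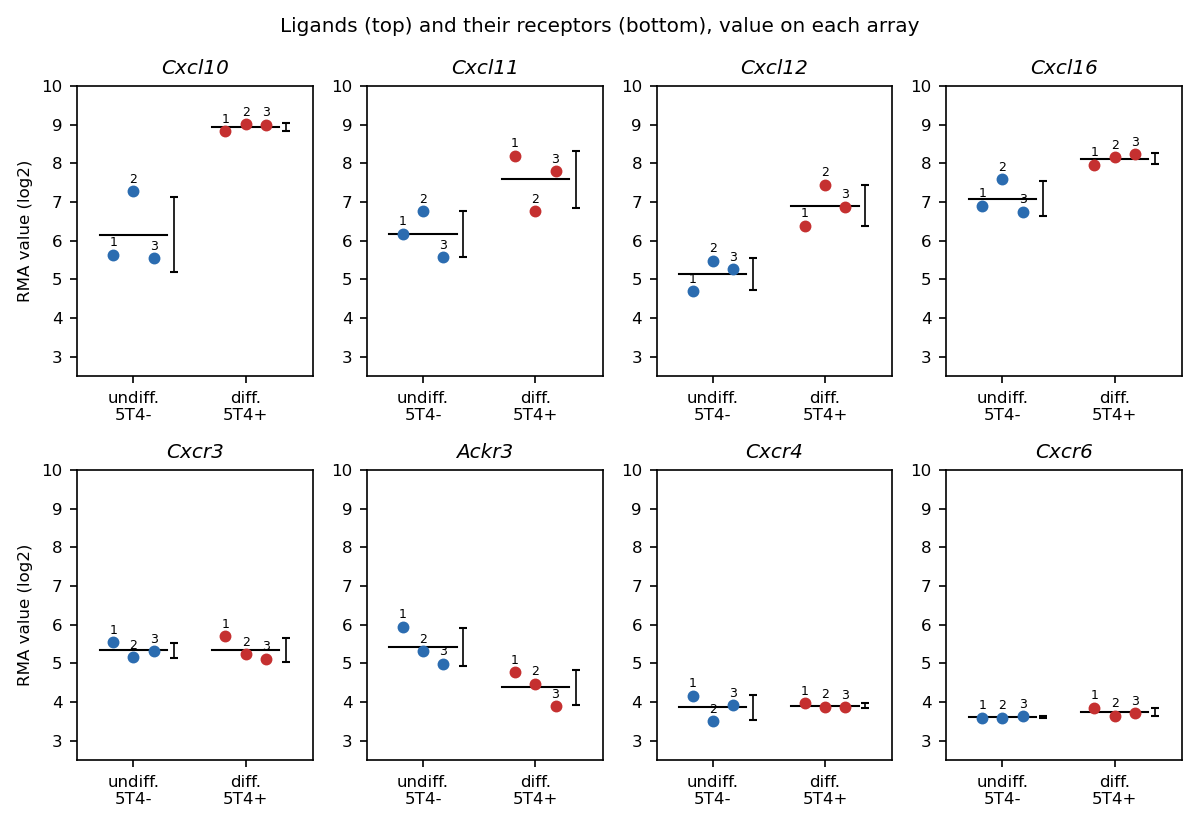
RMA value (log2, vertical axis, the same scale in all panels) on each array for 4 ligands (top) and 4 receptors (bottom), the 5T4-negative undifferentiated samples as blue and the 5T4-positive differentiating samples as red points. Replicate numbers stand above the points, the horizontal line is the mean and the bar the SD of 3 arrays. The ligand groups are apart, for Cxcl11 by 0.0085 only, whereas those of Cxcr3 and Cxcr4 overlap and those of Ackr3 are apart in the opposite direction.

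CXCL12, a homeostatic chemokine, signals through CXCR4. Cxcl12 had values of 4.69, 5.48 and 5.26 in undifferentiated and 6.39, 7.45 and 6.88 in differentiating replicates at its brightest probe set. The lowest differentiating array, replicate 1, was 0.90 above the highest undifferentiated one, replicate 2. The log2 fold change was 1.76 (SE 0.31, 95% interval 1.03 to 2.50, adjusted p = 0.0846 from limma). All 3 undifferentiated values lie within the range of the olfactory receptor probe sets, so this fold can be understated too. The second probe set kept the order of the groups, with 5.15, 5.72 and 5.57 in undifferentiated and 5.97, 7.04 and 6.61 in differentiating replicates, but its log2 fold change of 1.06 did not pass (adjusted p = 0.18 from limma). At the third probe set the groups overlapped, with 5.76, 5.86 and 5.84 against 6.36, 5.60 and 5.86 (log2 fold change 0.12, adjusted p = 0.844). The mean over the 3 probe sets was 0.98. Without differentiating replicate 2 or 3, or undifferentiated replicate 1 or 3, Cxcl12 no longer passed (log2 fold change 1.49 to 1.82, adjusted p = 0.102 to 0.311 from limma). In all of these fits but that without undifferentiated replicate 1, 0 probe sets of the whole array were called higher.

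The receptor gene Cxcr4 had values of 4.16, 3.51 and 3.92 in undifferentiated and 3.97, 3.88 and 3.87 in differentiating replicates. The differentiating arrays lay inside the undifferentiated range, and all 6 values fell within that of the olfactory receptor probe sets. The interval of the log2 fold change, -0.38 to 0.46, spans a linear ratio of 0.77 to 1.38, and with undifferentiated replicate 2 left out the estimate turned from 0.04 to -0.13.

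CXCL16 is made as a membrane protein that binds CXCR6 and can be shed. Cxcl16 had values of 6.91, 7.59 and 6.75 in undifferentiated and 7.96, 8.15 and 8.23 in differentiating replicates. The differentiating arrays were the higher ones without overlap, and undifferentiated replicate 2 was again the highest of its group. The log2 fold change was 1.03 (SE 0.23, 95% interval 0.49 to 1.58), short of the threshold (adjusted p = 0.121 from limma). Without undifferentiated replicate 2 it was 1.29 and passed (adjusted p = 0.0322), and it also passed with array weights (adjusted p = 0.0174) and with the dimmer probe sets left out (0.0999). A second probe set had 5.07, 6.66 and 4.73 in undifferentiated and 6.48, 7.14 and 7.18 in differentiating replicates, a log2 fold change of 1.45 with overlapping groups (adjusted p = 0.266 from limma). Cxcr6 was at 3.60, 3.60 and 3.64 against 3.85, 3.64 and 3.71. These values are near the median of the olfactory receptor probe sets (3.80), and the groups were separated by 0.00499 only.

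**Figure D3:**
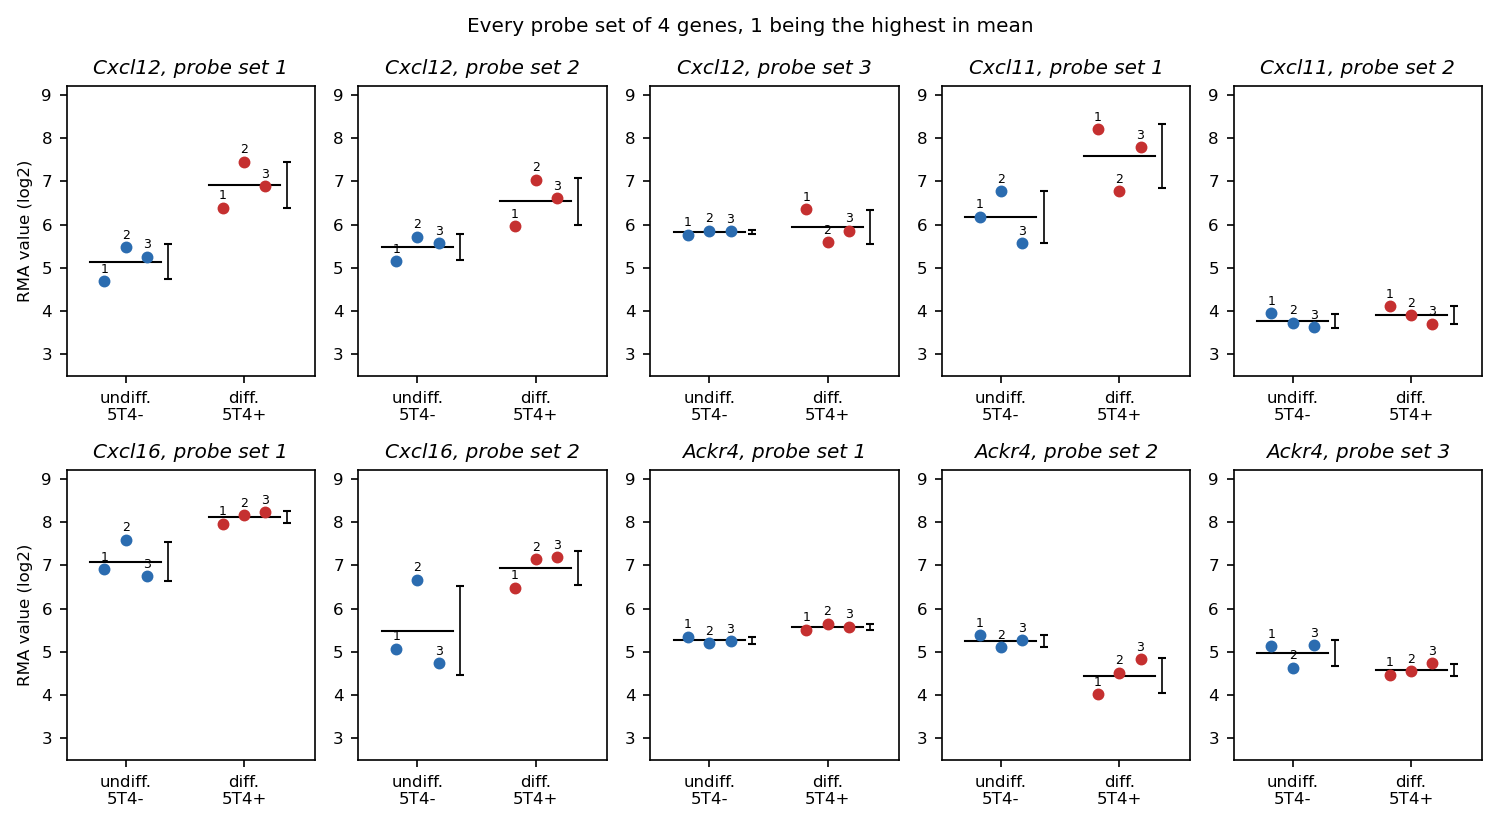
RMA value (log2, vertical axis, the same scale in all panels) on each array at every probe set of Cxcl12, Cxcl11, Cxcl16 and Ackr4, undifferentiated in blue and differentiating in red, with replicate numbers, the mean (line) and SD (bar) of 3 arrays. The first and second probe sets of Cxcl12 separate the groups and the third does not, and the first of Ackr4 differs in direction from its others.

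**Figure D4:**
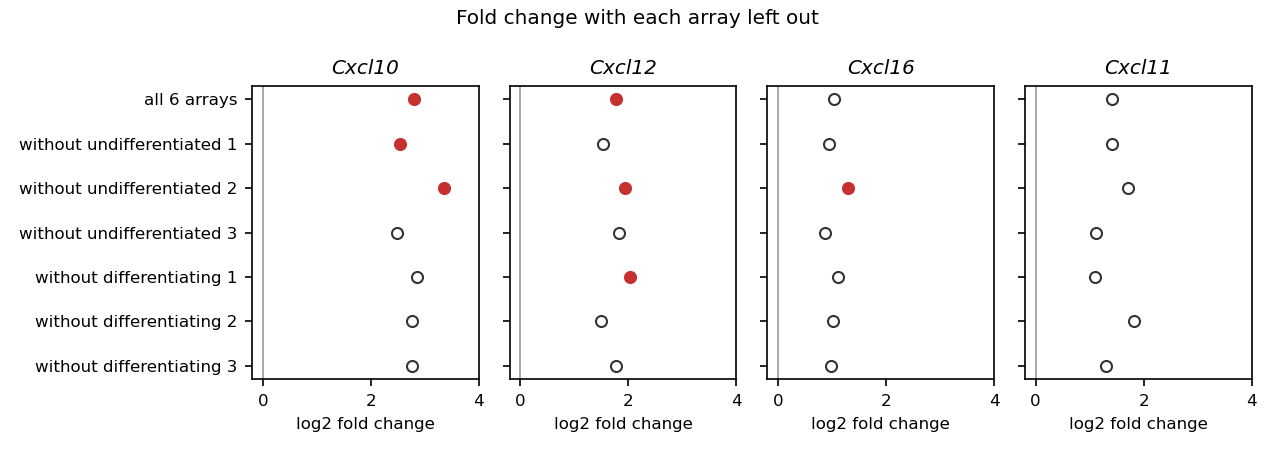
Log2 fold change (horizontal axis) of Cxcl10, Cxcl12, Cxcl16 and Cxcl11 with all 6 arrays and with each array left out in turn (rows), filled red where the adjusted p from limma was under 0.1. The estimates stay above 0 throughout, between 2.49 and 3.36 for Cxcl10 and between 1.49 and 2.02 for Cxcl12, while the calls come and go.

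For the remaining ligands the differences were small. ELR CXC ligands, which attract neutrophils through CXCR2, had log2 fold changes of -0.06 to 0.11, and none of 5 passed. Cxcl1, the brightest chemokine probe set, had values of 7.82, 7.84 and 7.70 in undifferentiated and 7.93, 7.84 and 7.92 in differentiating replicates. The groups were separated by 0.0047 only, and the log2 fold change was 0.11 (SE 0.11, adjusted p = 0.715 from limma). At its other probe sets the groups overlapped (-0.03, adjusted p = 0.95, and 0.26, adjusted p = 0.545). The other 4 genes of this family stand beside Cxcl1 in the genome.

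Among the inflammatory CC ligands, which attract monocytes and eosinophils, none of 11 passed (median log2 fold change 0.14), and differentiating replicate 1 was the highest array for 9 of them. Ccl24 (eotaxin-2) had values of 6.10, 6.04 and 6.14 in undifferentiated and 6.78, 6.10 and 6.07 in differentiating replicates. Its log2 fold change of 0.23 (adjusted p = 0.688 from limma) was -0.0055 without differentiating replicate 1, the one array that stood above the rest. Ccl3, an attractant of macrophages chosen after its values were seen, was the only member of this group below 0 (3.31, 4.20 and 4.07 against 3.61, 3.58 and 3.41, log2 fold change -0.33, adjusted p = 0.615 from limma). The clusters Ccl2, Ccl7, Ccl11, Ccl12, Ccl8 and Ccl1, and Ccl5, Ccl9, Ccl6, Ccl3 and Ccl4, each stand close together in the genome, and no gene of either passed.

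Of the other CC ligands none of 7 passed. Ccl27a, which attracts T cells to skin, had values of 5.10, 5.69 and 5.55 in undifferentiated and 5.85, 6.09 and 5.97 in differentiating replicates. The groups did not overlap, and the log2 fold change was 0.52 (SE 0.17, adjusted p = 0.257 from limma, and 0.0369 with array weights). Cx3cl1 (fractalkine), a membrane-bound attractant, had values of 6.47, 6.57 and 6.42 against 6.72, 6.70 and 6.56, where differentiating replicate 3 fell just below undifferentiated replicate 2 (log2 fold change 0.17, adjusted p = 0.566 from limma).

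The CC receptors, which bind the CC ligands, had a median log2 fold change of 0.05, and differentiating replicate 1 was the highest array for 8 of 9. Ccr2, the receptor of CCL2 on monocytes, had the brightest receptor probe set, with 6.68, 6.50 and 6.63 in undifferentiated and 7.00, 6.76 and 6.52 in differentiating replicates. The groups overlapped (log2 fold change 0.16, adjusted p = 0.711 from limma). The 3 dimmer Ccr2 probe sets had values of 2.92 to 4.19. In the 7 receptors of CXC, CX3C and XC chemokines the median was 0.13, with none past the test. Of the 4 atypical receptors, Ackr1, the Duffy blood group antigen that binds many chemokines, and Ackr4, the scavenger of CCL19, CCL21 and CCL25, were chosen here after their values were seen. Ackr1 had values of 5.54, 5.74 and 5.87 in undifferentiated and 6.13, 5.99 and 6.13 in differentiating replicates, without overlap (log2 fold change 0.37, adjusted p = 0.271 from limma). Ackr4 had no single direction. Its brightest probe set was at 5.35, 5.20 and 5.24 against 5.51, 5.65 and 5.58 (log2 fold change 0.32, adjusted p = 0.27 from limma). Its second was at 5.38, 5.11 and 5.27 against 4.01, 4.52 and 4.82 (-0.80, adjusted p = 0.172). Both separated the groups, in opposite directions. At the third, with 5.13, 4.63 and 5.15 against 4.47, 4.55 and 4.73, the groups overlapped (-0.39, adjusted p = 0.391), so 2 of the 3 estimates were below 0.

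Chemokines are also governed by the peptidases that cut them. Of 23 such genes and their inhibitors, 2 fell and none rose, where 1.45% of all genes were called lower and 0.797% higher. Dpp4, whose product CD26 removes the first residues of CXCL10, CXCL11 and CXCL12, had values of 7.30, 7.89 and 8.71 in undifferentiated and 5.71, 5.21 and 5.12 in differentiating replicates. The groups lay 1.59 apart, and the log2 fold change was -2.62 (SE 0.35, adjusted p = 0.0531 from limma), and -1.41 as a mean over its 4 probe sets. Timp1, an inhibitor of matrix metalloproteinases, was at 9.96, 9.91 and 9.42 against 8.91, 8.31 and 8.17, a log2 fold change of -1.30 (adjusted p = 0.0897 from limma).

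Of 35 measured inducers and regulators of inflammatory chemokines, 2 rose and none fell, where 0.797% of all genes were called higher and 1.45% lower. All differentiating arrays lay above all undifferentiated ones for 8 of the 35 and below them for 5. Of all genes, 10.7% were separated upward and 12.8% downward. Irf1, a transcription factor induced by interferon gamma, had values of 8.18, 8.78 and 8.81 in undifferentiated and 10.30, 9.90 and 9.80 in differentiating replicates. Every differentiating array was higher (log2 fold change 1.41, SE 0.22, adjusted p = 0.0669 from limma). Ifih1, a sensor of double-stranded RNA, was at 4.69, 5.40 and 4.75 against 7.15, 6.33 and 6.27 (1.64, SE 0.29, adjusted p = 0.0873).

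Of 19 measured interferon-stimulated genes, 3 rose, none fell and 16 did not pass, where 0.797% of all genes were called higher and 1.45% lower. The median log2 fold change was 0.76, compared with 0.02 over all genes. All differentiating arrays lay above all undifferentiated ones for 12 genes and below them for 0. Of all genes, 10.7% were separated upward and 12.8% downward. Differentiating replicate 1 was the highest of the 6 arrays for 11 of the 19, compared with 27.9% of all genes. Means of 8 lay within the range of the olfactory receptor probe sets. Psmb8, an immunoproteasome subunit, had values of 6.06, 7.32 and 6.37 in undifferentiated and 9.26, 9.08 and 8.56 in differentiating replicates (log2 fold change 2.38, adjusted p = 0.0583 from limma, but 1.37 as a mean over its probe sets). Oasl2, an oligoadenylate synthetase-like gene, was at 4.28, 5.21 and 5.09 against 6.92, 7.49 and 6.69 (2.17, adjusted p = 0.0538). Igtp, a GTPase induced by interferon gamma, was at 7.70, 6.85 and 6.97 against 8.72, 9.21 and 8.47 (1.63, adjusted p = 0.0806). All 3 separated the groups, as Cxcl10 did. The mean RMA value over the list was 5.77, 6.14 and 5.83 in undifferentiated and 7.01, 6.89 and 6.61 in differentiating replicates. Undifferentiated replicate 2 was the highest of its group for this mean, as it was for Cxcl10, Cxcl11, Cxcl12, Cxcl16, Psmb8 and Tpbg, and its part in their spread was not tested. It was the highest undifferentiated array for 14 of the 53 chemokine genes (26.4%), close to the 26.2% of all genes, and for 8 of these 19.

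**Figure D5:**
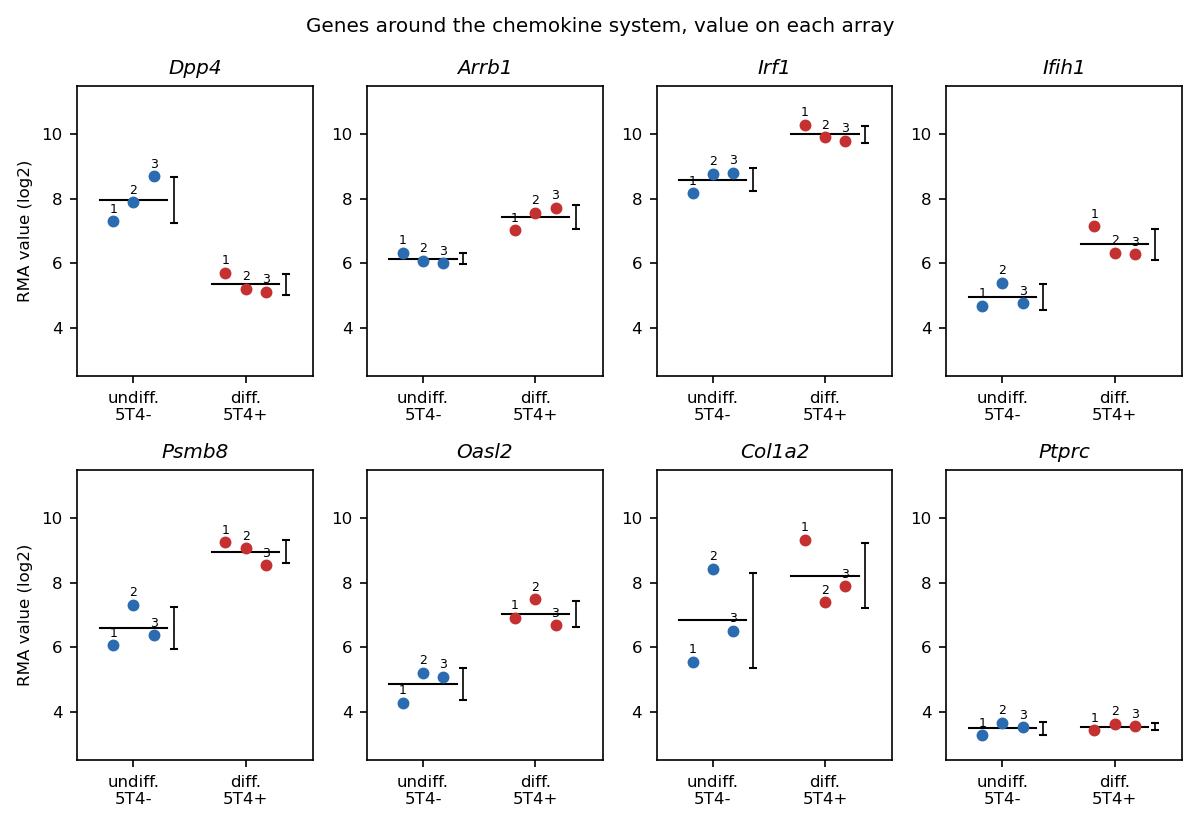
RMA value (log2, vertical axis, the same scale in all panels) on each array for genes around the chemokine system, undifferentiated in blue and differentiating in red, with replicate numbers, the mean (line) and SD (bar) of 3 arrays. Dpp4 is lower and Arrb1, Irf1, Ifih1, Psmb8 and Oasl2 are higher on every differentiating array, whereas Col1a2 overlaps and Ptprc stays between 3.27 and 3.66.

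In chemokine receptor signalling, 1 of 29 measured genes rose and none fell, where 0.797% of all genes were called higher and 1.45% lower. Arrb1 (beta-arrestin 1), which uncouples and internalises activated receptors, had values of 6.33, 6.08 and 6.01 in undifferentiated and 7.03, 7.57 and 7.72 in differentiating replicates. The groups were separate (log2 fold change 1.30, SE 0.20, adjusted p = 0.0672 from limma). None of 16 genes of the heparan sulfate proteoglycans that hold chemokines at cell surfaces passed (median 0.33). The largest estimates there were those of the sulfotransferase Hs6st2 (1.25, adjusted p = 0.571) and the glypican Gpc6 (1.00, adjusted p = 0.2). Of 13 measured chemokine-like genes and receptors that do not carry the standard names, such as Pf4 and Mif, none passed. Cmtm8 (0.80, adjusted p = 0.165) and Cmtm6 (-0.66, adjusted p = 0.375) had the largest estimates. The 12 genes called in these and the marker lists all kept their direction but lost the call without differentiating replicate 2 (adjusted p = 0.283 to 0.366 from limma), differentiating replicate 3 (0.219 to 0.321) or undifferentiated replicate 3 (0.167 to 0.327), and 1 to 4 of them lost it without one of the other arrays. Leaving out any of the 3 arrays named here also left 0 probe sets of the whole array called higher, so this loss is not particular to these genes.

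Other cells that make chemokines were looked for by their markers. Of 11 measured leukocyte markers, none was called higher, and 7 had means within the range of the olfactory receptor probe sets. Ptprc (CD45) was at 3.27 to 3.66 on all arrays. Means above that range were those of Laptm5, Csf1r (values of 6.91 to 7.32), Cd68 (6.84 to 8.33) and Cd3e (6.04 to 6.89). The groups were separated upward for 1 marker and downward for 1, Laptm5. The former was Cd14, with 4.83, 5.05 and 4.65 against 5.22, 5.09 and 5.27 (log2 fold change 0.35, adjusted p = 0.336 from limma). The mean RMA value over the list was 5.47 to 5.76 in undifferentiated and 5.15 to 5.61 in differentiating samples. Laptm5, a lysosomal membrane protein of blood cells, fell, from 10.06, 9.07 and 8.81 to 7.06, 5.35 and 6.17 (log2 fold change -3.12, adjusted p = 0.0675 from limma, but -0.92 as a mean over its probe sets). None of 13 fibroblast markers passed (median 0.18), but 10 had log2 fold changes above 0. For 4 of them (Dcn, Pdgfra, Lum and Postn) every differentiating array lay above every undifferentiated one, and for 0 below. Of all genes, 10.7% were separated upward and 12.8% downward. Lum was separated by 0.0077 only, and 8 of the 13 markers had means within the range of the olfactory receptor probe sets. The mean over the list was 5.18, 5.31 and 5.01 in undifferentiated and 5.62, 5.30 and 5.38 in differentiating samples. The collagen gene Col1a2 was at 5.55, 8.44 and 6.51 against 9.34, 7.41 and 7.89, with undifferentiated replicate 2 inside the differentiating range (1.38, adjusted p = 0.516 from limma), and the estimate for Dcn (decorin) was 0.66 (adjusted p = 0.132). The part of fibroblast-like cells in the Cxcl12 difference was not tested. None of 8 endothelial markers passed (median -0.33, with Vwf at -1.17 and Plvap at -1.03), nor did any of 13 genes of sorting and dissociation stress (median -0.22), of which Jun (1.71, adjusted p = 0.265) and Hspa1b (-0.96, adjusted p = 0.455) had the largest estimates.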

How the data were processed

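Affymetrix mouse expression arrays were hybridised with RNA of 6 samples. The authors used RMA of the affy library (version not given in the sources used here), which corrects background, normalizes the arrays to each other and gives each probe set 1 value. The deposited table holds these log2 values, 1 column for each array, and they were used as they stand. Arrays have no depth, and precision is limited by having 3 in each group.

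Of 45101 probe sets, 64 controls were left out and 45037 entered lmFit and eBayes of limma 3.58.1 (R 4.3.3, no covariate, 2.93 prior degrees of freedom), with Benjamini-Hochberg adjustment. At the thresholds of the methods (adjusted p under 0.1, log2 fold change 1 or more in size) there were 148 probe sets higher and 276 lower (0.329% and 0.613%). Single genes were called on the adjusted p alone. An exact permutation test of 3 against 3 cannot go below a two-sided p of 0.1 and was not used. The steps were tested on simulated data with independent noise and no shift of a whole array. That test therefore does not cover an array such as differentiating replicate 1, and it set no bound on the recovery of a log2 change of 1.

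The platform annotation named the probe sets: 34945 had 1 symbol, 932 several and 9160 none. By gene ID, 34741 were found in a RefSeq gene table of GRCm38.p6, which changed 0 symbols. Promoter windows were RefSeq sequences, and 40 of the 53 genes had an entry. The array values name no genome build.

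The members, gene lists, motifs and tests were chosen with earlier results of these data known. Named were the members that passed, those the paper names, those whose groups did not overlap with a log2 fold change of at least 0.5 in size, the 8 of highest mean, Dpp4 and Tpbg, and from each list the genes that passed or else the 2 of largest change. Alternatives were the replicate block, the dimmer probe sets left out, controls kept, array weights, a trended robust variance, quantile normalization run again, centring on array medians, values floored at the olfactory receptor median, each array left out, other thresholds and other choices of probe set. Leaving out differentiating replicate 1 and undifferentiated replicate 2 together was added after seeing the data.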

Additional observations from a re-analysis of the deposited data

How the results depend on the processing

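Cxcl10 and Cxcl12 stayed higher in differentiating cells under every alternative run, but their calls did not. Among ligands, 2 were called higher, and the number was 4 with array weights (Cxcl16 and Ccl27a added). It was 0 with values floored at the olfactory receptor median, 0 at an adjusted p under 0.05, and 0 to 3 with 1 array left out. By a different measure, 5 ligands (15.2%) had an unadjusted p under 0.05, compared with 17.2% of all genes. With array weights 1 ligand (Ccl3) was lower, and 1 receptor (Ackr4) was higher and 1 (Ackr3) lower. The floor left Cxcl10 at 2.80 (adjusted p = 0.193 from limma) and Cxcl12 at 1.76 (adjusted p = 0.207), below the threshold, and the mean over its probe sets put Cxcl12 at 0.98. With 1 array left out, Cxcl10 ranged from 2.49 to 3.36 and Cxcl12 from 1.49 to 2.02. Probe sets called higher and lower, 148 and 276, became 694 and 742 with array weights, 5 and 15 with the floor, 258 and 462 with no fold threshold, 744 and 555 with differentiating replicate 1 and undifferentiated replicate 2 both left out, and 0 to 563 and 0 to 494 with 1 array left out. The array weights ran from 0.298 (differentiating replicate 1) to 5.11 (differentiating replicate 2), so that fit leans on 1 array.

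Estimates near 0 changed sign. Cxcr3 was -0.046 with array weights, -0.029 with median centring, -0.026 with a second quantile normalization, -0.25 with both arrays left out, and -0.16 to 0.13 with 1 left out. Cxcr4 was -0.060 with the floor, -0.010 with a second quantile normalization, -0.17 with both left out, and -0.13 to 0.19 with 1 left out. Ccl24 was -0.032 and Ccr2 -0.015 with both left out, and Ccl24 ranged from -0.0055 to 0.35 with 1 left out. The cause was not tested for any of these.

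The labels do not say whether the replicate numbers pair the samples. Deviations from the group means of same-numbered arrays correlated at 0.21, -0.11 and 0.11. Undifferentiated replicates 1 and 3 correlated best with the differentiating array of the same number, and undifferentiated replicate 2 with differentiating replicate 3 (0.32). With 3 arrays in a group the deviations constrain each other, so these correlations cannot decide whether the samples are paired. With the replicate block Cxcl10 and Cxcl12 still passed (2.80, adjusted p = 0.0711, and 1.76, adjusted p = 0.0444 from limma), and 1 receptor, Ackr3, was called lower. Of 20 receptors, 18 had means within the range of the olfactory receptor probe sets, which limits what can be seen of them.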
